A study of Mus musculus with 12 samples.

Results

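Growth factor receptor tyrosine kinases are single-pass membrane proteins that bind a ligand outside the cell and phosphorylate themselves and docking proteins inside it, which starts RAS-ERK and PI3K-AKT signalling. Fibroblasts carry several of them, and PDGF, FGF, EGF, HGF and IGF are classical drivers of their growth, migration and survival. The gene table was searched for 10 members by name: the FGF receptors *Fgfr1*, *Fgfr2* and *Fgfr3*, the PDGF receptors *Pdgfra* and *Pdgfrb*, the EGF receptor *Egfr*, the HGF receptor *Met*, the IGF-1 and insulin receptors *Igf1r* and *Insr*, and the collagen receptor *Ddr2*. All 10 were found among 24453 genes, and all 10 passed the filter on low counts among 14026 genes tested.

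The libraries came from 4 lines of SV40-immortalised mouse embryonic fibroblasts (MEFs; strain C57BL6/J) with loxP-flanked *Pnpt1* alleles, and each line gave 3 biological replicates, 12 libraries in all. TM6 is the parental line and keeps its mitochondrial DNA (mtDNA). The rho0 line was derived from TM6 with ditercalinium at 750 ng/mL for 3 weeks, which removes mtDNA. PKO-1 and PKO-6 were derived from TM6 with an adenovirus carrying Cre, which deletes part of *Pnpt1* and so removes the RNA-degrading enzyme PNPase, and they also lack mtDNA. The lines were all grown with uridine at 50 µg/mL. The rho0 line and each PKO line grew from 1 isolated colony, so that a difference between lines and a difference between clones cannot be told apart.

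Each library held 47164832 to 67991336 counts, of which 12.2% to 19.6% belonged to the ribosomal RNA gene *Rn45s*. *Pnpt1* itself measured 2832 to 3320 normalized counts (counts scaled to a common library size) in TM6, 5051 to 5510 in rho0, 1191 to 1276 in PKO-1 and 1720 to 2214 in PKO-6. Since the deletion takes out only part of one exon, most of the gene can still be counted in the PKO lines. Of 10 fibroblast markers, TM6 had more than 3 counts in at least 1 library for 10, rho0 for 8, PKO-1 for 9 and PKO-6 for 9. This is a low bar, as *Thy1* averaged only 2.81 ± 2.6 normalized counts in TM6. A list of 8 epithelial markers, most of it *Krt19*, summed to 1646 to 1781 normalized counts in TM6 and 2432 to 2897 in rho0. Its sum was 1955 to 2083 in PKO-1 and 2814 to 3267 in PKO-6. The markers of this list did not share a direction. *Krt19* was lower in PKO-1 (1137.6 to 1265.4) than in TM6 (1386 to 1514.7) and higher in rho0 and PKO-6. *Krt18* measured 231.7 to 247.3 in TM6, 805.7 to 832.9 in PKO-1 and 4.85 to 9.83 in PKO-6. *Epcam* was higher in PKO-6 (76.97 to 104.7) than in TM6 (2.99 to 5.73). *Thy1* was at 3 counts or fewer in rho0, PKO-1 and PKO-6, and *Lum* was so in rho0. The leukocyte markers *Ptprc*, *Adgre1*, *Itgam* and *Tyrobp* were at 3 counts or fewer in the 4 lines, while the others of that list, *Cd68* and *Cd14*, had line means of 91.6 to 186 and 153 to 397 normalized counts.

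Transcript structure matters for several members. The *Fgfr1* exon for the first Ig-like domain (chr8:25555508-25555774, plus strand) is held by 2 of the 3 *Fgfr1* transcripts listed, and the lines differed in the share of the transcript without it. Its sequence is printed here, 5′ to 3′ in the direction of transcription, taken from GENCODE transcripts of GRCm38 at the coordinates of the RefSeq exon that the files list.
Fgfr1 exon of the first Ig-like domain: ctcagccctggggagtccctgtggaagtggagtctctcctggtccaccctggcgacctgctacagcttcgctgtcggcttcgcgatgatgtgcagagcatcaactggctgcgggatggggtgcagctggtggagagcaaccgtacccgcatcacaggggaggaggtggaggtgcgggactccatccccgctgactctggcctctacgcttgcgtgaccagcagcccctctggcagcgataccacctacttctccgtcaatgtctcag

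The order of the receptors within each line was examined first, in TPM, which corrects for transcript length. In TM6 the levels ran from *Ddr2* at 69.96 ± 2.63 TPM (SD, n = 3) through *Met* at 51.9 ± 3.5, *Fgfr1* at 47.6 ± 2.0, *Pdgfrb* at 40.5 ± 2.1, *Igf1r* at 23.9 ± 0.73, *Egfr* at 15.7 ± 0.24, *Insr* at 9.87 ± 0.06, *Fgfr2* at 9.25 ± 0.26 and *Pdgfra* at 1.62 ± 0.12 to *Fgfr3* at 0.54 ± 0.045. The libraries of neighbours in this order overlapped only for *Met* and *Fgfr1*. *Ddr2*, *Met* and *Fgfr1* held the top 3 places in rho0, PKO-1 and PKO-6 as well, and *Fgfr3* the last.

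The middle of the order differed between lines. *Pdgfrb* held the fourth place in TM6, the fifth in rho0 at 14.4 ± 0.053 TPM, the fifth in PKO-1 at 16.6 ± 1.9 and the sixth in PKO-6 at 8.60 ± 0.42. *Egfr* went from 15.7 TPM in TM6 to 3.41 ± 0.18 in rho0, 0.95 ± 0.046 in PKO-1 and 1.70 ± 0.19 in PKO-6, so that the ratio of *Met* to *Egfr* was 3.09 to 3.40 in TM6, 11.7 to 12.1 in rho0, 66.8 to 77.1 in PKO-1 and 24.5 to 28.5 in PKO-6. *Pdgfra* stood at 14.6 ± 0.30 TPM in PKO-1, just below *Pdgfrb*, against 0.38 ± 0.068 in rho0 and 1.90 ± 0.14 in PKO-6. In PKO-6 the libraries of *Fgfr1* and *Igf1r* overlapped, and so did those of *Pdgfra* and *Egfr*, while in rho0 and PKO-1 no neighbours overlapped.

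**Figure D1:**
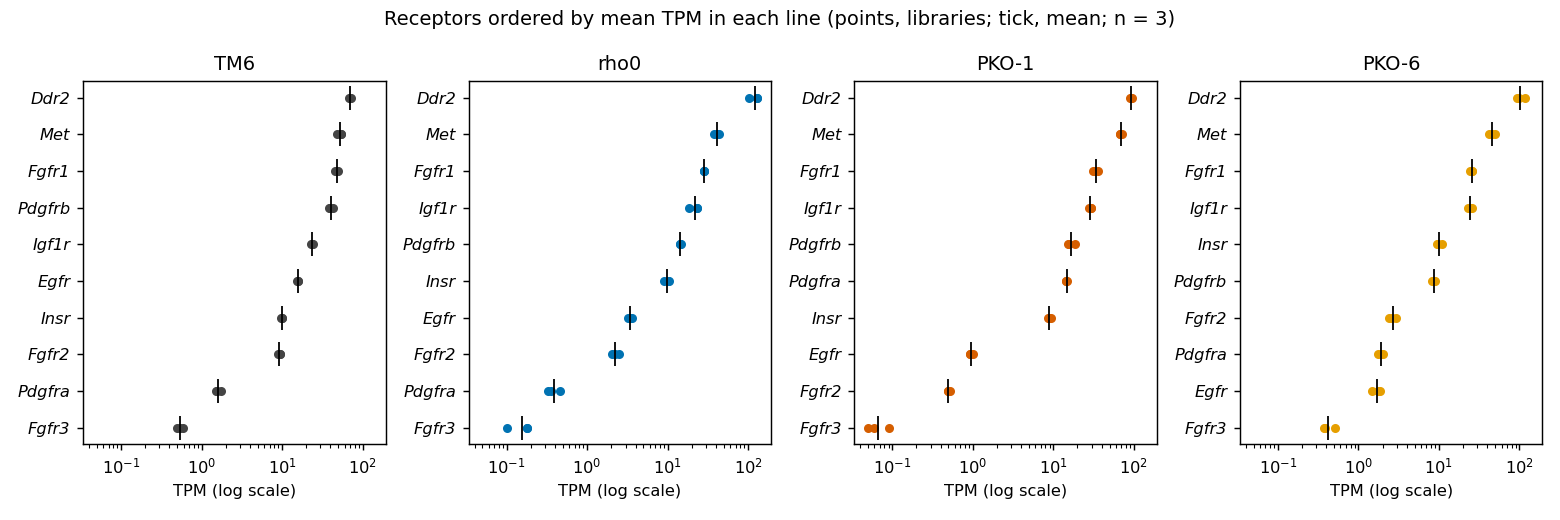
Levels of the 10 receptors in each line, in TPM on a log axis, ordered from the highest to the lowest mean; points are the 3 libraries and the tick is their mean. *Ddr2*, *Met* and *Fgfr1* lead in the 4 lines, *Pdgfra* climbs to the sixth place in PKO-1, and *Egfr* drops from 15.7 TPM in TM6 to 0.95 TPM in PKO-1.

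The 10 receptors together summed to 271 ± 2.3 TPM in TM6, 242 ± 22 in rho0, 265 ± 9.0 in PKO-1 and 225 ± 19 in PKO-6. *Ddr2* made up 25.8% ± 0.92 of that sum in TM6, 49.9% ± 2.0 in rho0, 34.9% ± 0.22 in PKO-1 and 45.9% ± 2.1 in PKO-6. Between the PDGF receptors, the ratio of *Pdgfra* to *Pdgfrb* was 0.036 to 0.044 in TM6, 0.023 to 0.032 in rho0, 0.797 to 0.935 in PKO-1 and 0.215 to 0.231 in PKO-6. *Fgfr1* supplied 82.2% to 83.9% of the TPM of the 3 FGF receptors in TM6, 91.4% to 93.0% in rho0, 98.3% to 98.4% in PKO-1 and 88.2% to 90.5% in PKO-6.

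Each line was then compared with TM6, to ask which receptors differ in cells without mtDNA and in cells that lack both mtDNA and PNPase. A gene was called when its adjusted p in edgeR's quasi-likelihood test was below 0.01 and its absolute log2 fold change above 0.5. In rho0, 7 of the 10 receptors were called, 1 higher and 6 lower, where 42.1% of all tested genes were called. With the PKO clones pooled in the same fit the number was 4, and *Fgfr2*, *Fgfr3* and *Pdgfra* had adjusted p of 0.0273, 0.0662 and 0.0754. In PKO-1, 5 were called, 1 higher and 4 lower, against 34.3% of all tested genes, and in PKO-6, 5 were called, 1 higher and 4 lower, against 41.3%. The 3 comparisons share the same 3 TM6 libraries. The libraries of a line are cultures of that line, so these p-values measure the spread between cultures and not between clones. The median log2 fold change of the 10 receptors was -1.09 in rho0, -0.27 in PKO-1 and -0.21 in PKO-6, beside 0.018, 0.00086 and 0.014 over all tested genes. Replicates were close, and groups failed to overlap for 9, 10 and 7 of the 10 receptors, as they did for 72.8%, 71.8% and 71.9% of all tested genes. In bulk RNA, fewer cells that express a gene and less RNA per cell cannot be told apart.

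**Figure D2:**
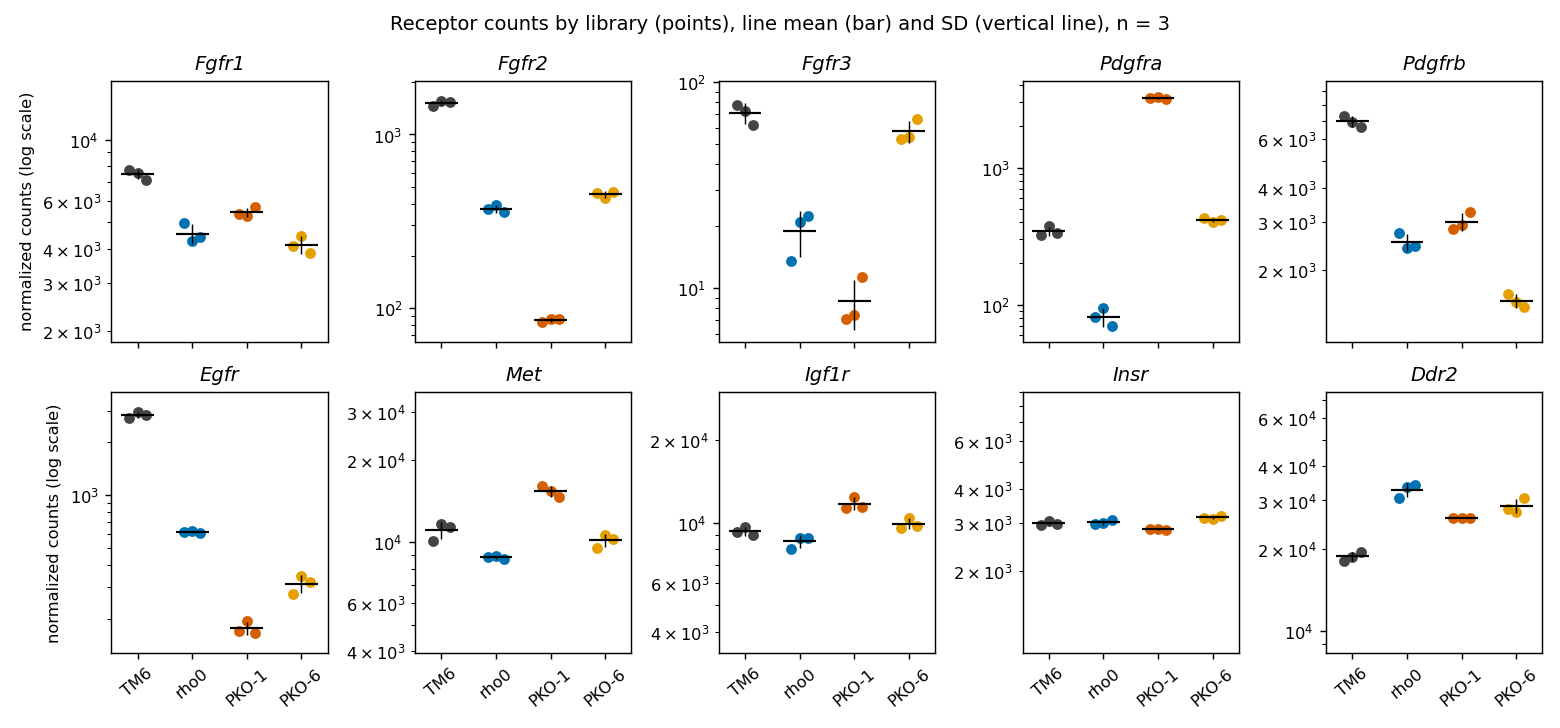
Normalized counts of each receptor in the 12 libraries on log axes that differ between panels; points are libraries, bars the mean of 3 and vertical lines the SD. *Egfr*, *Fgfr2* and *Pdgfrb* sit highest in the TM6 libraries, *Pdgfra* in PKO-1, and *Insr* stays between 2822 and 3191 counts.

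*Egfr*, the receptor for EGF, TGF-alpha, amphiregulin and related ligands (chr11:16752203-16913907, plus strand, mm10), was lower in each line than in TM6. Its normalized counts were 2717, 2925 and 2831 in the TM6 libraries, 619.9, 627 and 611 in rho0, 170.2, 193 and 165 in PKO-1, and 274, 349 and 323 in PKO-6. No group overlapped with another, and PKO-1 was the lowest. *Egfr* was 4.56-fold lower in rho0 (log2 fold change -2.19 ± 0.08 SE, adjusted p = 3.71e-11), 16.02-fold lower in PKO-1 (-4.00 ± 0.09, 6.68e-13) and 8.97-fold lower in PKO-6 (-3.17 ± 0.09, 1.27e-12). The full-length transcript of 28 exons carried 82.0% to 100% of the estimated *Egfr* TPM in every library. The rest went to a transcript of 16 exons that ends before the membrane-spanning and kinase parts.

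*Fgfr2* (chr7:130162451-130266808, minus strand), a receptor for FGFs, was also lower. The TM6 libraries held 1464, 1561 and 1537 normalized counts, rho0 373, 391 and 356, PKO-1 83.3, 87.3 and 86.9, and PKO-6 459, 430.1 and 467. The PKO-1 libraries lay far below all others, and rho0 and PKO-6 lay between them and TM6. The difference was 4.07-fold in rho0 (log2 -2.03 ± 0.07, adjusted p = 1.94e-11), 17.7-fold in PKO-1 (-4.14 ± 0.08, 2.02e-13) and 3.36-fold in PKO-6 (-1.75 ± 0.07, 4.83e-11).

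*Pdgfrb*, the receptor for PDGF-BB (chromosome 18, plus strand, 61045150 to 61085067), measured 7333, 6968 and 6656 normalized counts across the TM6 libraries, 2735, 2409 and 2445 in rho0, 2818, 2929 and 3258 in PKO-1, and 1637, 1531 and 1458 in PKO-6. TM6 was the highest and PKO-6 the lowest, and neither overlapped with any other line. It fell 2.76-fold in rho0 (log2 -1.46 ± 0.07, adjusted p = 4.68e-10), 2.33-fold in PKO-1 (-1.22 ± 0.07, 3.64e-09) and 4.53-fold in PKO-6 (-2.18 ± 0.07, 8.49e-12). The median of the tested genes of chromosome 18 went the other way, at 0.42 in rho0, 0.42 in PKO-1 and 0.34 in PKO-6 on the log2 scale. A list of 6 pericyte and smooth muscle markers was, in sum, also highest in TM6 and lowest in PKO-6, but lower in PKO-1 than in rho0, where *Pdgfrb* was higher in PKO-1. Its summed level was 25805 to 26437 normalized counts in TM6, 8321 to 9267 in rho0, 6363 to 6808 in PKO-1 and 5090.2 to 6309 in PKO-6. Of the 6 markers, 5 were above 3 counts in TM6 and rho0 and 6 in PKO-1 and PKO-6, with *Rgs5* at 3 counts or fewer in TM6 and rho0. *Acta2*, smooth muscle actin, measured 11554 ± 303 in TM6, 737 ± 96 in rho0, 484 ± 31 in PKO-1 and 76.3 ± 20 in PKO-6. *Tagln* (6051 to 105) and *Cspg4* (8405 to 5349) were also lower in PKO-6 than in TM6, and *Des* (9.82 to 43.5) and *Rgs5* (1.59 to 22.2) were higher. *Myh11* had 11.8 ± 2.2 in TM6, 16.9 ± 6.3 in rho0 and 9.02 ± 0.30 in PKO-6. Whether the levels of these markers and of *Pdgfrb* are linked was not tested.

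*Pdgfra*, the receptor for PDGF-AA and other PDGF dimers (chr5:75152291-75198204, plus strand), took opposite directions. It measured 319.9, 373 and 333 normalized counts across the TM6 libraries, 81.4, 94.2 and 69.2 in rho0, 3214, 3295 and 3167 in PKO-1, and 431, 402 and 411 in PKO-6. Libraries of rho0 were the lowest and those of PKO-1 the highest by a wide margin, with no overlap between any lines. It fell 4.18-fold in rho0 (log2 -2.06 ± 0.10, adjusted p = 4.79e-10) and rose 9.44-fold in PKO-1 (3.24 ± 0.08, 1.38e-12). In PKO-6 it measured 0.28 ± 0.08 on the log2 scale (adjusted p = 0.00767), below the fold threshold.

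Estimates per transcript split the *Pdgfra* difference by first exon. The files list 2 transcripts that share all but a non-coding first exon, one upstream (chr5:75152291-75152457) and one downstream (chr5:75156166-75156349). The upstream form measured 0.64 to 0.71 TPM in TM6, 0 to 0.19 in rho0, 8.83 to 10.6 in PKO-1 and 0 to 0.29 in PKO-6. The downstream form measured 0.82 to 1.10 TPM in TM6, 0.17 to 0.46 in rho0, 3.84 to 5.61 in PKO-1 and 1.73 to 1.75 in PKO-6. So both forms were higher in PKO-1, the upstream one more so, and PKO-6 was above TM6 for the downstream form and below it for the upstream form. The upstream form took 41.4% ± 4.6 of *Pdgfra* TPM in TM6, 67.4% ± 6.1 in PKO-1 and 7.85% ± 7.2 in PKO-6. In rho0 it took 0%, 0% and 52.8% of libraries with few *Pdgfra* counts, which gives no usable share. These values rest on the reads over first exons of 167 and 184 bases and were not tested.

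**Figure D3:**
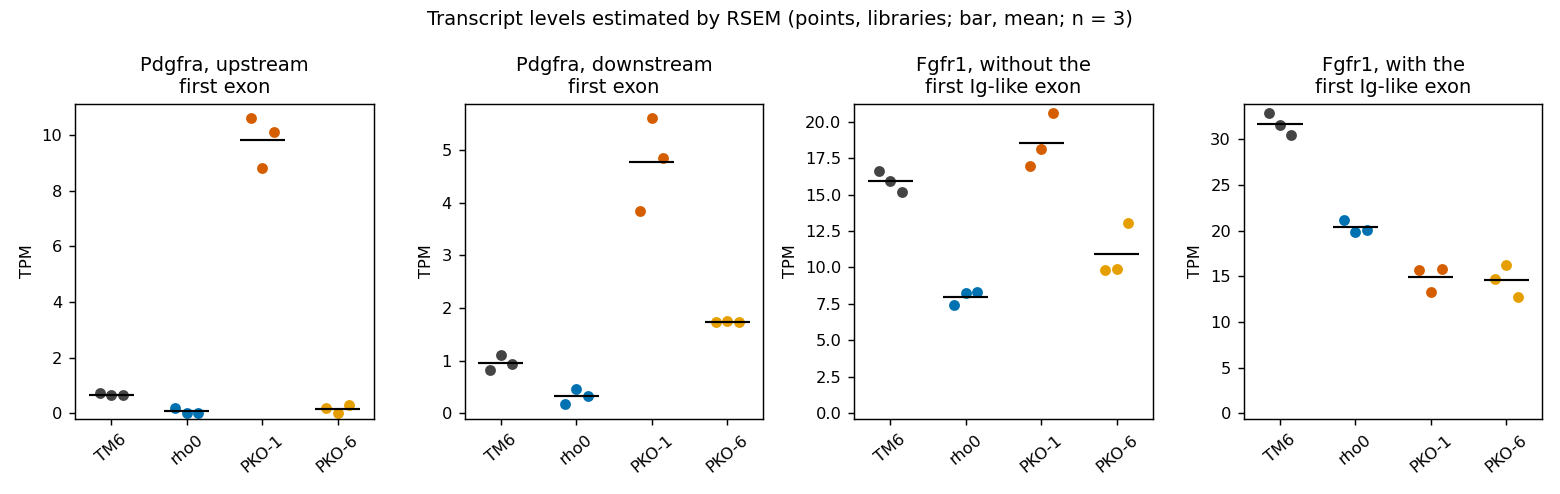
TPM of the *Pdgfra* transcripts with the upstream and the downstream first exon and of the *Fgfr1* transcripts without and with the exon of the first Ig-like domain, with points for libraries and bars for the mean of 3. PKO-1 reaches 8.83 to 10.6 TPM for the upstream *Pdgfra* form, and its *Fgfr1* without the exon (16.99 to 20.6 TPM) exceeds that with it (13.3 to 15.8 TPM).

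The region before the upstream *Pdgfra* start is shown beside those before the 2 receptors that fell most in PKO-1, each as the 250 bases before the RefSeq start (GRCm38.p6). For *Pdgfra* that start lies upstream of the one in the files. Capitals mark matches to the CCAAT box (CCAAT), the GC box (GGGCGG), the TATA box (TATAAA) or the AP-1 motif (TGANTCA), searched on both strands; these 4 motifs do not contain one another. Of 32851 promoters of this length, 33.8%, 32.7%, 12.4% and 6.75% held them.
Pdgfra, chr5:75152001-75152250, plus strand: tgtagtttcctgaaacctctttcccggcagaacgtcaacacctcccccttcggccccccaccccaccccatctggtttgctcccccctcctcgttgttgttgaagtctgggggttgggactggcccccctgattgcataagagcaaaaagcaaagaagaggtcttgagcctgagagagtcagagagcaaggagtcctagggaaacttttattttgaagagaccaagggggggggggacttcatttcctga
Egfr, chr11:16751953-16752202, plus strand: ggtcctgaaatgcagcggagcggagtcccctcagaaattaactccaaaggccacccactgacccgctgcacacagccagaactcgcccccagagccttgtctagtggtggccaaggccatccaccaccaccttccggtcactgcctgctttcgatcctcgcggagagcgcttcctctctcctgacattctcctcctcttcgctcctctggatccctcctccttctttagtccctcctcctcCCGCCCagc
Fgfr2, chr7:130266809-130267058, minus strand: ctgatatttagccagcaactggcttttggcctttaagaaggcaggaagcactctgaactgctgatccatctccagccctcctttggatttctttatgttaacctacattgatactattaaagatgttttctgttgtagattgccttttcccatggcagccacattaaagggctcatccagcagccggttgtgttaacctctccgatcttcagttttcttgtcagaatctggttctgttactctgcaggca
The *Egfr* window holds 1 GC box on its reverse strand, and the other windows hold none of the 4 motifs. CpG dinucleotides numbered 11 for *Egfr*, 4 for *Pdgfra* and 2 for *Fgfr2*, beside a median of 6 over all promoters. Those of *Met* and *Igf1r* held 24 and 42, that of *Ddr2* 1, and the 2 windows of *Fgfr3* 19 and 24.

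*Fgfr1* (chr8:25518759-25575718, plus strand), the main FGF receptor of fibroblasts, measured 7732, 7546 and 7138 normalized counts across the TM6 libraries, 4968, 4256 and 4404 in rho0, 5363, 5262 and 5667 in PKO-1, and 4076, 4466 and 3870 in PKO-6. Every TM6 library was above all others. It fell 1.64-fold in rho0 (log2 -0.72 ± 0.07, adjusted p = 4.81e-07) and 1.81-fold in PKO-6 (-0.85 ± 0.07, 7.48e-08). In PKO-1 it measured -0.46 ± 0.07 (adjusted p = 4.30e-05), inside the fold threshold. The median log2 fold change of chromosome 8 genes was -0.43 in PKO-6, and relative to that median *Fgfr1* measured -0.43 there and was no longer called. Its exons overlap those of *Gm16159* on the opposite strand, and whether strand was used in counting is not given in the sources used here.

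The *Fgfr1* transcripts differed in mix as well as in sum. The form without the exon of the first Ig-like domain, known as the beta form, took 33.3% to 33.6% of *Fgfr1* TPM in TM6, 26.1% to 29.3% in rho0, 52.0% to 57.8% in PKO-1 and 37.9% to 50.6% in PKO-6, with no overlap between lines. The forms with that exon summed to 31.7 ± 1.2 TPM in TM6, 20.4 ± 0.70 in rho0, 14.9 ± 1.5 in PKO-1 and 14.6 ± 1.8 in PKO-6. Without it, the form measured 15.9 ± 0.74, 8.01 ± 0.49, 18.6 ± 1.8 and 10.9 ± 1.8 TPM in the same order. In PKO-1 the decrease was thus seen in the forms with the exon, and the form without it was slightly above TM6. These shares are estimates by RSEM, a tool that divides shared reads between transcripts, and were not tested.

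*Fgfr3* (chr5:33721724-33737068, plus strand) was near the lower limit of measurement. The libraries measured 77.8, 72.6 and 61.8 normalized counts across the TM6 libraries, 13.6, 21.1 and 22.3 in rho0, 7.14, 7.46 and 11.4 in PKO-1, and 53.2, 53.9 and 65.9 in PKO-6. PKO-6 overlapped with TM6, and the other lines lay below both. It fell 3.74-fold in rho0 (log2 -1.90 ± 0.23, adjusted p = 4.79e-06) and 8.02-fold in PKO-1 (-3.00 ± 0.26, 2.40e-07), and measured -0.30 ± 0.20 in PKO-6 (adjusted p = 0.196). Its 5 listed transcripts could not be told apart at these counts.

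*Ddr2*, a receptor for fibrillar collagens (chr1:169972307-170088944, minus strand), was the 1 receptor above TM6 in rho0 and PKO-6 by the call. It measured 18090, 18647 and 19471 normalized counts across the TM6 libraries, 30559, 33724 and 34163 in rho0, 25980, 25841 and 25952 in PKO-1, and 27932, 27342 and 30538 in PKO-6. Every TM6 library lay below all others. It rose 1.75-fold in rho0 (log2 0.81 ± 0.06, adjusted p = 4.96e-08) and 1.53-fold in PKO-6 (0.61 ± 0.06, 7.97e-07), and measured 0.47 ± 0.06 in PKO-1 (adjusted p = 1.42e-05). Relative to the median of chromosome 1 genes it was no longer called in PKO-6, at 0.40. Its exons overlap those of *3110045C21Rik* on the opposite strand.

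*Met*, *Igf1r* and *Insr* were not called in any line against TM6. *Met*, the HGF receptor (chr6:17463957-17573980, plus strand), measured 10152, 11696 and 11419 normalized counts across the TM6 libraries, 8864, 8888 and 8679.6 in rho0, 16017, 15460.1 and 14660 in PKO-1, and 9564, 10677 and 10299 in PKO-6. PKO-1 was the highest and rho0 the lowest, with log2 differences from TM6 of 0.47 ± 0.06 and -0.33 ± 0.06 (adjusted p = 1.64e-05 and 0.00032), both inside the fold threshold. Without TM6 replicate 2 or PKO-1 replicate 3 the value in PKO-1 was 0.51 and passed it. *Igf1r* (chr7:67952257-68233667, plus strand) held 9222, 9682 and 8987 normalized counts in TM6, 8008.5, 8803 and 8818 in rho0, 11358, 12471 and 11431 in PKO-1, and 9604, 10447 and 9732 in PKO-6, and its log2 fold change was 0.34 ± 0.06 in PKO-1 (adjusted p = 0.000201). *Insr* (chr8:3150922-3279617, minus strand) had the narrowest range, with 2953 to 3038 normalized counts in TM6, 2966 to 3084 in rho0, 2822 to 2859 in PKO-1 and 3101 to 3191 in PKO-6. Its log2 fold changes were 0.012 ± 0.04, -0.073 ± 0.04 and 0.072 ± 0.04, with adjusted p of 0.808, 0.132 and 0.128. Relative to the median of chromosome 8 genes it measured 0.499 in PKO-6, just inside the fold threshold.

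**Figure D4:**
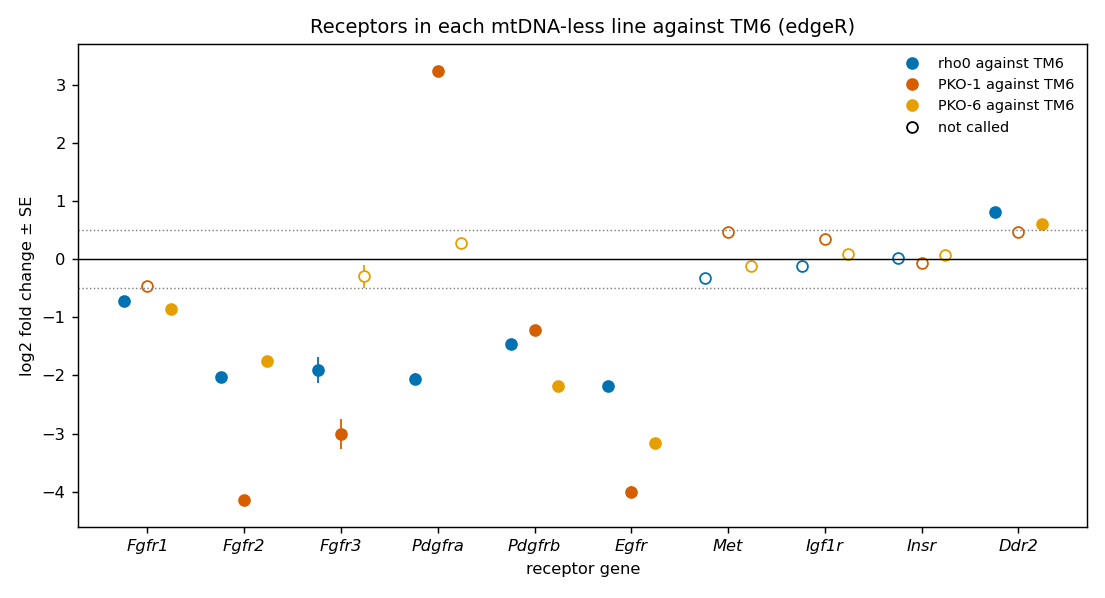
Log2 fold changes of the 10 receptors in rho0, PKO-1 and PKO-6 against TM6 with their standard errors (vertical lines), filled where called, and dotted lines at the fold threshold of 0.5. *Egfr*, *Fgfr2* and *Pdgfrb* lie below the threshold in each line, *Pdgfra* is at -2.06 in rho0 and 3.24 in PKO-1, and *Insr* lies at 0.

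The 2 PKO lines, which share the deletion, were compared directly. In PKO-1, 3 receptors were higher and 3 lower by the call, 6 of 10, where 29.1% of all tested genes were called. *Pdgfra* was 7.77-fold higher in PKO-1 than in PKO-6 (log2 2.96 ± 0.08, adjusted p = 3.56e-12), *Pdgfrb* 1.95-fold (0.96 ± 0.07, 6.07e-08) and *Met* 1.51-fold (0.60 ± 0.06, 2.09e-06). *Fgfr3* was 6.53-fold lower in PKO-1 (-2.71 ± 0.26, 9.44e-07), *Fgfr2* 5.26-fold (-2.39 ± 0.08, 2.50e-11) and *Egfr* 1.78-fold (-0.84 ± 0.09, 3.72e-06). The libraries of the lines did not overlap for any of the 10, as for 66.5% of all tested genes. *Met* lost its call relative to the median of chromosome 6 genes, at 0.48.

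With the clones pooled as 6 PKO libraries, 5 receptors were called against TM6, 1 higher and 4 lower, beside 25.7% of all tested genes. *Egfr* (log2 -3.52 ± 0.22, adjusted p = 2.50e-07), *Fgfr2* (-2.49 ± 0.55, 0.00287), *Pdgfrb* (-1.62 ± 0.24, 0.000203) and *Fgfr1* (-0.64 ± 0.12, 0.000822) fell, and *Ddr2* rose (0.54 ± 0.07, 6.80e-05). The spread between the clones entered the error here, and *Pdgfra* at 2.41 ± 0.81 was not called (adjusted p = 0.0275). However, the 6 libraries are cultures of PKO-1 and PKO-6 alone and were treated as separate replicates. These p-values, and those of PKO against rho0, therefore do not measure the spread among knockout or rho0 clones in general. Without TM6 replicate 2 or replicate 3 the adjusted p of *Fgfr2* was 0.0108 or 0.0104, and without TM6 replicate 1 *Ddr2* measured 0.48; each call was then lost. Relative to the medians of their chromosomes, *Fgfr1* measured -0.40 (adjusted p = 0.0167) and *Ddr2* 0.33, and neither was called. Groups did not overlap for 6 receptors, and for 47.7% of all tested genes.

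PKO was set against rho0 to ask what differs between lines that all lack mtDNA. Called were 2 receptors, 1 higher and 1 lower, beside 10.7% of all tested genes. *Egfr* was 2.51-fold lower in PKO than in rho0 (log2 -1.33 ± 0.22, adjusted p = 0.000988). *Pdgfra* was higher by 4.48 ± 0.93 on the log2 scale (adjusted p = 0.00407), but without rho0 replicate 1, 2 or 3 its adjusted p was 0.0194, 0.0233 or 0.0270 and the call was lost. It was also lost with only the compared groups fitted (0.0134) and with the replicate number as a block (0.0129). *Met* (0.54 ± 0.17, adjusted p = 0.0292) and *Igf1r* (0.34 ± 0.09, 0.0105) missed the threshold. Groups did not overlap for 5 receptors and for 32% of all tested genes.

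The ligands and partners of these receptors were read from 133 listed genes in 11 groups, of which 115 were tested. Called were 70 in rho0 (28 higher, 42 lower), 60 in PKO-1 (31 higher, 29 lower) and 67 in PKO-6 (40 higher, 27 lower), which is 60.9%, 52.2% and 58.3% of those tested, beside 42.1%, 34.3% and 41.3% of all tested genes. Between PKO-1 and PKO-6 the number was 45 (21 higher and 24 lower), in PKO against TM6 45 (27 higher, 18 lower), and in PKO against rho0 24 (22 higher, 2 lower), which is 39.1%, 39.1% and 20.9%, beside 29.1%, 25.7% and 10.7% of all tested genes. Over all tested genes the calls against TM6 split into 2899 higher and 3003 lower in rho0, 2294 and 2516 in PKO-1, and 3077 and 2722 in PKO-6. The counts for each group below are to be read beside these shares of all tested genes.

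EGFR is activated by a family of related ligands. Of 6 tested, 3 were called higher and 1 lower in rho0, 4 higher and 1 lower in PKO-1, and 5 higher and 0 lower in PKO-6. *Btc*, betacellulin, had 17.96 ± 4.4 normalized counts in TM6, 52.9 ± 3.6 in rho0, 119 ± 7.5 in PKO-1 and 248 ± 28 in PKO-6. *Areg*, amphiregulin, had 14.4 ± 2.4, 28.3 ± 1.0, 58.7 ± 5.6 and 159 ± 8.1 in the same order. Against TM6 their log2 fold changes reached 3.79 ± 0.17 and 3.46 ± 0.17 in PKO-6 (adjusted p = 1.80e-10 and 4.53e-10). *Ereg* and *Tgfa* are named after their values were seen: *Ereg*, epiregulin, rose 6.10-fold in PKO-1 and 2.69-fold in PKO-6 and fell by 0.52 on the log2 scale in rho0, and *Tgfa* rose 7.98-fold in PKO-6 and fell by 0.72 on the log2 scale in PKO-1. In PKO against rho0, 4 of the 6 were called higher and 0 lower.

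Ligands of the PDGF and FGF receptors were called in both directions. Of 4 PDGF ligands, 1 was called higher and 2 lower in rho0, 1 and 2 in PKO-1, and 2 and 1 in PKO-6. *Pdgfb* fell from 380.1 ± 6.5 normalized counts in TM6 to 18.3 ± 3.4 in rho0, 24.1 ± 7.6 in PKO-1 and 94.9 ± 9.3 in PKO-6, and *Pdgfd* from 629 ± 43 to 168 ± 22 in rho0 and 179 ± 33 in PKO-1, with 479.6 ± 6.1 in PKO-6. Of 9 tested FGF ligands and co-receptors, 2 were higher and 3 lower in rho0, 3 and 2 in PKO-1, and 3 and 3 in PKO-6. *Fgf5* measured 56.9 ± 4.8 normalized counts in TM6, 1.86 ± 1.7 in rho0, 0.36 ± 0.61 in PKO-1 and 13.7 ± 3.0 in PKO-6. *Fgf1* had 1.23 ± 0.44, 81.1 ± 52, 14.03 ± 8.6 and 44.8 ± 3.8, with groups at 3 counts or fewer for both genes.

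Of 7 tested IGF and insulin ligands and binding proteins, 1 was called higher and 6 lower in rho0, 2 and 5 in PKO-1, and 2 and 5 in PKO-6. *Igf1* itself had 257 ± 42 normalized counts in TM6, 1.34 ± 1.5 in rho0, 1.79 ± 1.1 in PKO-1 and 13.9 ± 4.1 in PKO-6, and *Igfbp5* had 202 ± 26, 3.84 ± 1.4, 86.9 ± 20 and 6.61 ± 1.5. *Igf1r*, the receptor for IGF-1, measured -0.12 in rho0, 0.34 in PKO-1 and 0.09 in PKO-6 on the log2 scale and was not called. Of 5 tested HGF family genes, 0 were higher and 3 lower in rho0, 0 and 3 in PKO-1, and 2 and 1 in PKO-6. *Spint1* and *Spint2*, inhibitors of the proteases that activate HGF, were both low in rho0 and PKO-1: *Spint1* had 53.5 ± 17 in TM6, 6.02 ± 1.7 in rho0, 0 in the 3 PKO-1 libraries and 128 ± 14 in PKO-6, and *Spint2* 69.05 ± 11, 2.17 ± 3.0, 4.72 ± 3.4 and 38.3 ± 9.1.

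DDR2 is activated by collagens. Of 6 tested, 0 were called higher and 5 lower in rho0, 1 and 3 in PKO-1, and 0 and 5 in PKO-6, and 4 were higher in PKO-1 than in PKO-6. For *Col3a1*, TM6 measured 4765 ± 477 normalized counts, with 476 ± 52 in rho0, 7011 ± 768 in PKO-1 and 329 ± 71 in PKO-6. *Col10a1* had 297 ± 1.7, 68.4 ± 37, 43.4 ± 9.3 and 38.4 ± 9.8.

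Inside the cell, inhibitors and turnover factors were called at 7 higher and 6 lower of 24 in rho0, 10 and 3 in PKO-1, and 10 and 4 in PKO-6. *Spry3*, a Sprouty inhibitor of RAS-ERK signalling, went from 52.4 ± 10 normalized counts in TM6 to 206 ± 11 in rho0, 373 ± 23 in PKO-1 and 287 ± 9.6 in PKO-6. *Sulf2*, which edits heparan sulfate co-receptors, had 1002 ± 44 in TM6, 130.3 ± 2.2 in rho0, 1001.5 ± 66 in PKO-1 and 1145 ± 18 in PKO-6, and was called against TM6 only in rho0 among these 3 comparisons (-2.94 ± 0.08, adjusted p = 1.29e-12). *Dusp6*, an ERK phosphatase, and *Errfi1*, an EGFR inhibitor, are named after their values were seen: *Dusp6* rose 1.98-fold in rho0, 3.44-fold in PKO-1 and 4.86-fold in PKO-6, and *Errfi1* rose 3.70-fold in PKO-1 and 2.52-fold in PKO-6 and measured 0.16 ± 0.06 on the log2 scale in rho0. *Ptpn1* and *Sulf1* of the same list, also named after their values were seen, were lower in each line than in TM6. *Ptpn1* had 4087 ± 39 normalized counts in TM6, 1599 ± 154 in rho0, 1986 ± 11 in PKO-1 and 1778 ± 220 in PKO-6. *Sulf1* had 2788 ± 89, 1850 ± 93, 1707 ± 87 and 1137 ± 47 in the same order.

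**Figure D5:**
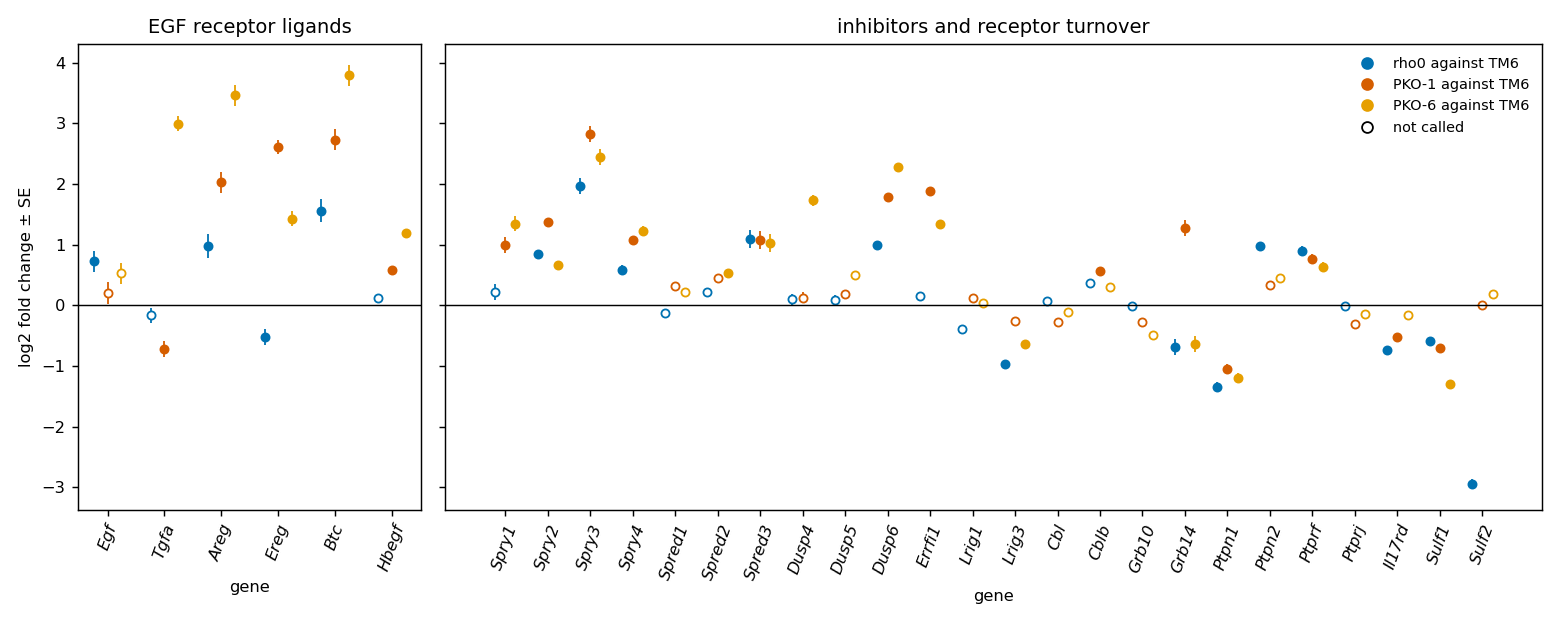
Log2 fold changes against TM6 of the tested EGF receptor ligands and of the 24 inhibitors and turnover factors, with standard errors as vertical lines and filled points where called. *Btc* and *Areg* are above 0 in rho0, PKO-1 and PKO-6 and highest in PKO-6 at 3.79 and 3.46, while *Sulf2* falls to -2.94 in rho0.

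Of 11 listed genes that ERK induces, 4 were called higher and 4 lower in rho0, 4 and 1 in PKO-1, and 7 and 1 in PKO-6. *Etv1* measured 261 ± 15 normalized counts in TM6, 245 ± 7.5 in rho0, 1727 ± 53 in PKO-1 and 1068 ± 59 in PKO-6, and *Egr2* 64.5 ± 4.6, 6.06 ± 1.1, 31.4 ± 5.1 and 44.6 ± 21. Adaptors carry the signal from the receptors to RAS and PI3K. Of 18 adaptors and docking proteins, 4 were called higher and 6 lower in rho0, 3 and 4 in PKO-1, and 3 and 3 in PKO-6, and *Shc2* and *Gab1* led them, at 2.38 ± 0.09 in rho0 and -1.72 ± 0.08 in PKO-6 on the log2 scale. Of 15 RAS-ERK and AKT kinases and regulators, 3 and 4 were called in rho0, 1 and 2 in PKO-1, and 1 and 3 in PKO-6. The shares called in rho0, PKO-1 and PKO-6 were 55.6%, 38.9% and 33.3% for the adaptors, and 46.7%, 20% and 26.7% for the kinases. Of all tested genes, 42.1%, 34.3% and 41.3% were called. Both groups were thus below the share of all tested genes in PKO-6, and the kinases also in PKO-1.

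Among 10 tested receptors related to the members, 3 were called higher and 2 lower in rho0, 2 and 3 in PKO-1, and 5 and 1 in PKO-6. *Flt4*, a VEGF-C receptor, had 124 ± 9.5 normalized counts in TM6, 17.7 ± 1.2 in rho0, 56.2 ± 4.3 in PKO-1 and 2269 ± 197 in PKO-6. *Kdr*, the main VEGF-A receptor, had 55.2 ± 14, 12.8 ± 4.3, 22.2 ± 6.8 and 142 ± 12. Endothelial markers had a summed level in the same libraries of 11.5 to 25.9 in TM6, 16.7 to 28.8 in rho0, 125 to 139 in PKO-1 and 146 to 235 in PKO-6, most of which was *Vwf* in the PKO lines (4.64 ± 1.5 in TM6, 11.5 ± 5.1 in rho0, 112 ± 14 in PKO-1 and 163 ± 47 in PKO-6). Of the 5 markers, 2 were above 3 counts in TM6 and rho0 and 4 in PKO-1 and PKO-6, and *Tie1* was at 3 counts or fewer in the 4 lines. Their part in the *Flt4* and *Kdr* values was not tested.

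The genes with the profile most like each member over the 12 libraries, by Pearson's r of log2 CPM, are given as a description, since the points fall into 4 lines and many genes follow such a pattern. *Egfr* was matched best by *Mras* and *Foxd1* (r = 0.99 each), *Fgfr2* by *Bahcc1* (0.997), *Pdgfra* by *Ctnnd2* (0.996), *Pdgfrb* by *Abcb10* (0.996), *Ddr2* by *Creb5* (0.997) and *Fgfr1* by *Id3* (0.997). Above r = 0.95 there were 124 genes for *Egfr*, 103 for *Fgfr2*, 69 for *Pdgfra*, 242 for *Pdgfrb*, 203 for *Ddr2* and 295 for *Fgfr1*, against 2 for *Igf1r* and 3 for *Insr*.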

How the data were processed

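RNA-seq of 12 libraries from 4 mouse lines was analysed. Total RNA was depleted of rRNA, and stranded libraries were made in technical duplicate and merged. Per the labels, RSEM 1.2.25 with Bowtie2 was run against RefSeq transcripts (mm10/GRCm38). The deposited values are expected counts (not normalized) per gene and, per transcript, expected counts, TPM, FPKM and the percent of its gene's TPM, all made by the authors.

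Gene counts were rounded (12.5% had decimals) and tested in R 4.3.3 with edgeR 4.0.16: filterByExpr (minimum count 10, 14026 genes), TMM and the quasi-likelihood test. The 4 lines were fitted together. PKO against TM6 and against rho0 were fitted with the clones pooled. Adjustment was by Benjamini-Hochberg across the 14026 genes. Standard errors were derived from the log2 fold change and the F value (its root). DESeq2 1.42.0 and other filters, scalings and groupings were alternatives, and the script was tested on simulated data. Members and lists were chosen with earlier results of these data known. Of each list, the 2 called genes with the largest change against TM6 and a mean of at least 50 normalized counts in a line were named. Where a group had 3 counts or fewer, no fold is given. Deviations of same-numbered TM6 and PKO-6 libraries correlated at r = 0.209 to 0.25. Differently numbered libraries of different lines reached 0.49, so a pairing cannot be told from these values, and the labels state none. A replicate block changed no receptor call between TM6 and PKO-6. Promoters matched 7 of the 10 members by symbol. TPM and shares were described, not tested. A few results that the naming rule would give are not reported here.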

Additional observations from a re-analysis of the deposited data

Results flagged for a closer look

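The direct test between PKO-1 and PKO-6, lines that share the same deletion, was past the threshold for 6 receptors of 10. It was also past it for 29.1% of all tested genes. The log2 difference (PKO-1 over PKO-6) was 2.96 for *Pdgfra*, 0.96 for *Pdgfrb* and 0.60 for *Met*, and -2.71 for *Fgfr3*, -2.39 for *Fgfr2* and -0.84 for *Egfr*. Groups of 3 libraries are too small for a test of outlying libraries.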

How the results depend on the processing

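Of 1350 results of single receptors under alternative settings, 1279 kept their direction and their side of the threshold, 25 lost and 19 gained a call, and 27 changed sign, all of them for *Insr*, which lies near 0. Not all are refits. Settings that changed only the threshold could not change a sign, and could only lose or only gain calls. Removing chromosome medians adjusted the values of the main fit. The log2 value of *Insr* was -0.00639 in rho0 without *Rn45s* and -0.0116 there with only the compared groups fitted. With chromosome medians removed it measured 0.0406 in PKO-1 and 0.0682 in PKO against rho0. It then also measured 0.499 in PKO-6, just inside the fold threshold, 0.192 in rho0 and 0.246 in PKO against TM6. Between PKO-1 and PKO-6 it was -0.440. In PKO against TM6 it was -0.0181 with DESeq2 size factors, -0.0108 without the filter, -0.0310 without *Rn45s*, -0.0182 by DESeq2's own test, -0.0182 when its fold changes were moderated, -0.00594 with only the compared groups and -0.000461 with the 4 lines fitted separately. Leaving out 1 library gave *Insr* -0.0254 to 0.0198 in rho0, -0.0408 to 0.0181 in PKO against TM6 and -0.0401 to 0.00596 in PKO against rho0.

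A stricter threshold must lower counts. With an absolute log2 fold change above 1, the receptors called were 3 in PKO-6, 3 between the PKO lines and 3 in PKO against TM6. Of all 14026 tested genes, 3038, 1950 and 1788 were called in these comparisons. The pathway genes called were 42 in rho0, 38 in PKO-1 and 14 in PKO against rho0, beside 2944, 2274 and 667 of all tested genes. With adjusted p alone, 9 receptors were called in PKO-1, where 7611 of all tested genes were called. Between the PKO lines 71 pathway genes were called, beside 7014 of all tested genes. With chromosome medians removed, 3 receptors were called in PKO-6 and 3 in PKO against TM6, where *Fgfr1* and *Ddr2* lost their calls. Pooling the clones left 4 receptors in rho0. For removed medians and for pooled clones, the number called among all tested genes is not given here. In PKO against rho0, 1 receptor was called with only the compared groups. With the 4 lines fitted separately 4 receptors were called there, with 44 pathway genes and 3330 of all tested genes. Leaving out 1 library gave 1 to 2 receptors, 14 to 24 pathway genes and 841 to 1699 of all tested genes. *Pdgfra* in PKO against TM6 was called by DESeq2 (adjusted p = 0.00477). The cause of these shifts was not tested.

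Deviations of same-numbered libraries correlated at -0.385 to 0.25, with 10 of 18 pairs over 0.1. Those of differently numbered libraries of different lines correlated at -0.415 to 0.49. For TM6 and PKO-6 the 3 pairs were over 0.1 (0.25, 0.25 and 0.209), and for every other pair of lines at least 1 was not. These values lie inside the range of differently numbered libraries, so a pairing cannot be told from them. The main fits did not pair the samples. With the replicate number as a block, 1 receptor was called in PKO against rho0, where *Pdgfra* had an adjusted p of 0.0129, and the number of receptors called did not change in the other comparisons. Shares by expected counts in place of TPM, chosen after seeing the data, lowered the short *Egfr* transcript to 4.96% in TM6. Few counts limit *Fgfr3* and the *Pdgfra* shares in rho0.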
